A study of Mus musculus with 4 samples.

Results

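The histone deacetylases described here are the 10 genes Hdac1 to Hdac10, taken by gene symbol from a table of 13834 genes measured in mouse peritoneal macrophages. They comprise 4 class I genes (Hdac1, Hdac2, Hdac3 and Hdac8), 4 class IIa genes (Hdac4, Hdac5, Hdac7 and Hdac9) and 2 class IIb genes (Hdac6 and Hdac10). All 10 passed the filter on low counts, as did Hdac11, the only class IV enzyme, which is in the table but is not among the 10. RNA was sequenced from 4 samples, 2 from Dnmt1KO and 2 from Dnmt1fl/fl mice. The labels give the Dnmt1fl/fl samples the genotype wt. Both genotypes carry the floxed Dnmt1 gene, and the Dnmt1KO mice were made with Cre recombinase driven by the LysM promoter, which is active in macrophages and neutrophils alike. Whether the controls carried Cre is not stated. Mice of 10 weeks received thioglycolate broth, which draws leukocytes into the abdominal cavity, 3 days before the lavage. Per the study's methods the cells were then cultured, and the labels name no further agent. The labels do not say that the samples came from separate mice, so p-values measure the spread between these samples, which may be technical.

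Histone deacetylases remove acetyl groups from lysines, on histones and on other proteins. Class I enzymes are mostly nuclear, and Hdac1, Hdac2 and Hdac3 are the catalytic subunits of large co-repressor complexes. Class IIa enzymes have little deacetylase activity of their own, bind MEF2 transcription factors and leave the nucleus when kinases phosphorylate them, whereas the class IIb enzymes act largely in the cytoplasm. In macrophages these enzymes are known for restraining and shaping inflammatory gene expression, and Dnmt1, the enzyme that copies CpG methylation to new DNA strands, is known to bind Hdac1 and Hdac2. The comparison of genotypes asks how loss of Dnmt1 alters gene expression in macrophages.

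Total counts ran from 20228071 to 24198943 per sample. Dnmt1, the targeted gene, was at 86.6 and 67 CPM (read counts scaled to library size, with TMM factors between samples) in Dnmt1fl/fl and at 37 and 42.7 CPM in Dnmt1KO samples, a log2 difference of -0.95 (standard error 0.24, unadjusted p = 0.00839) with an adjusted p = 1.00 in the quasi-likelihood test of edgeR. All 10 macrophage markers were listed, with Adgre1 (F4/80) from 700 to 986 and Csf1r from 1011 to 1126 CPM. The sum of the 10 markers was 36041 and 35000 CPM in Dnmt1fl/fl and 18442 and 21937 CPM in Dnmt1KO samples. Most of it was Lyz2, the lysozyme gene whose promoter drives Cre, at 29531 and 28587 against 11351 and 15745 CPM. Lyz2 was the only 1 of the 10 whose genotypes did not overlap, where 16.7% of all genes did not. The lower sum thus follows Lyz2 and does not measure the share of macrophages. Dnmt1KO replicate 1 stood apart from the other 3 samples. Relative to the mean of all samples, genes with under 2760 exon bases had a median log2 deviation of 0.28 in this library and those with over 6790 of -0.26, while the trend was flat in Dnmt1fl/fl replicate 2 (0.01 and -0.01) and ran the other way in Dnmt1fl/fl replicate 1 (-0.13 and 0.14) and Dnmt1KO replicate 2 (-0.14 and 0.14). The 8 listed of 10 neutrophil markers summed to 882 CPM in Dnmt1KO replicate 1 against 215 and 319 CPM in Dnmt1fl/fl and 217 CPM in the other Dnmt1KO sample, with Camp and Ngp not listed. Csf3r varied little, from 137 to 169 CPM. S100a9 was at 5.55 and 60.5 CPM in Dnmt1fl/fl and at 320 and 8.35 CPM in Dnmt1KO samples. Dnmt1fl/fl replicate 2 was above replicate 1 for S100a8, S100a9, Ly6g, Cxcr2 and Mmp9, but not for Csf3r, Retnlg and Ltf. All 7 B cell markers were listed and summed to 133 CPM in Dnmt1KO replicate 1, to 327 and 498 CPM in Dnmt1fl/fl and to 542 CPM in the other Dnmt1KO sample. T cell markers, with 8 of 8 listed, summed to 38.4 to 63.4 CPM in Dnmt1fl/fl and 39 to 52.6 CPM in Dnmt1KO samples, eosinophil markers (3 of 6, without Prg2, Epx and Ear6) to 10 to 14.1 and 7.67 to 11.1 CPM, and mesothelial markers (6 of 6) to 5.75 to 6.66 and 4.19 to 10.3 CPM. Log2 fold changes of the members are therefore given with and without Dnmt1KO replicate 1.

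The start regions of 3 members are shown because they span the content of CpG, the dinucleotide that Dnmt1 methylates, across the family. They are RefSeq windows on GRCm38.p6, the assembly the submitters' notes name as mm10, from 250 bases before to 50 after an annotated start, with each CG in capitals. Hdac2 is shown at chr10:36974294-36974593 (plus strand), Hdac5 at chr11:102230123-102230422 (minus strand) and the upstream start of Hdac9 at chr12:34917046-34917345 (minus strand).
Hdac2: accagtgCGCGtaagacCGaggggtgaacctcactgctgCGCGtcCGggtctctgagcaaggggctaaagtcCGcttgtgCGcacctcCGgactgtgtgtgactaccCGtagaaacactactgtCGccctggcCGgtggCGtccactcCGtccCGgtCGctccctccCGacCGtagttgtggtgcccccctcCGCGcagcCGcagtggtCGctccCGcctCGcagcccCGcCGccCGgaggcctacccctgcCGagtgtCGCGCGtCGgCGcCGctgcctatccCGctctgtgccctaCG
Hdac5: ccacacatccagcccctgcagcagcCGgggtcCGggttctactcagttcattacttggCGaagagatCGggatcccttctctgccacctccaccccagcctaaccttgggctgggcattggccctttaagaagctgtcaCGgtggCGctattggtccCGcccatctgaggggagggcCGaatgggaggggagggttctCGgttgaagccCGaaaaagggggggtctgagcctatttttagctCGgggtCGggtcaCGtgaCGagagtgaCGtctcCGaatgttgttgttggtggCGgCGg
Hdac9: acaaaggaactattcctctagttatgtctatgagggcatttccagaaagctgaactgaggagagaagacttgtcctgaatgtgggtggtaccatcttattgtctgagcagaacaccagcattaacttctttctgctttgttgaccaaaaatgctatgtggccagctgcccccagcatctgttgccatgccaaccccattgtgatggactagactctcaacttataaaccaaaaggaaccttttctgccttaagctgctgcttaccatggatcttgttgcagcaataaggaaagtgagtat
The Hdac2 window held 36 CG, the Hdac5 window 18 and this Hdac9 window 0. A second Hdac9 start, at chr12:34528840-34529139, held 3. CG reads alike on both strands, 94.6% of the 32851 windows in the table held at least 1, and the median was 7. At least 10 CG were found in 43.5% of all windows and in 6 of the 11 windows that matched 7 members by symbol. Hdac4 had 32, Hdac6 had 20, Hdac8 had 6, and the 4 annotated starts of Hdac7 had 5, 6, 31 and 35. Methylation was not measured in these samples, so the letters describe the genes and not their state.

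Levels of different genes were compared as CPM per kilobase of exon, using the union of a gene's annotated exons. In this measure the class I enzymes Hdac1, Hdac2 and Hdac3 and the class IIa enzyme Hdac5 were the most abundant members. Hdac1, on chromosome 4 from 129516104 to 129542713, was at 18.3 ± 2.98 CPM per kilobase (SD over 4 samples of both genotypes), above 80.3% of the genes tested. Its 4 samples, from 15.3 to 21.9, lay above all samples of every other member. Next came Hdac2, the close relative of Hdac1 (11.8 ± 2.25), Hdac5 (11.7 ± 1.69) and Hdac3, the enzyme of the NCoR and SMRT complexes (10.2 ± 0.832), in SD over 4 samples. The ranges of these 3 overlapped, so their order was not resolved. Hdac10, a polyamine deacetylase, followed at 5.97 ± 1.25 CPM per kilobase (SD, n = 4), and its range met that of neither neighbour in the order.

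The other 5 members were lower and overlapped with their neighbours. Hdac9, a class IIa enzyme, was at 2.84 ± 0.768, Hdac7, also class IIa, at 2.49 ± 0.589, and Hdac6, the tubulin deacetylase, at 2.01 ± 0.649 CPM per kilobase (SD, n = 4). Hdac8, a class I enzyme that deacetylates cohesin, was at 1.4 ± 0.277 and Hdac4 at 1.17 ± 0.117 CPM per kilobase (SD, n = 4), above 24.4% and 22.1% of genes tested. Class I thus held both the most abundant member and, in Hdac8, 1 of the least abundant. With the longest transcript in place of the exon union, Hdac5 moved above Hdac2 and Hdac8 above Hdac6, and 6 of 10 members kept their place.

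**Figure D1:**
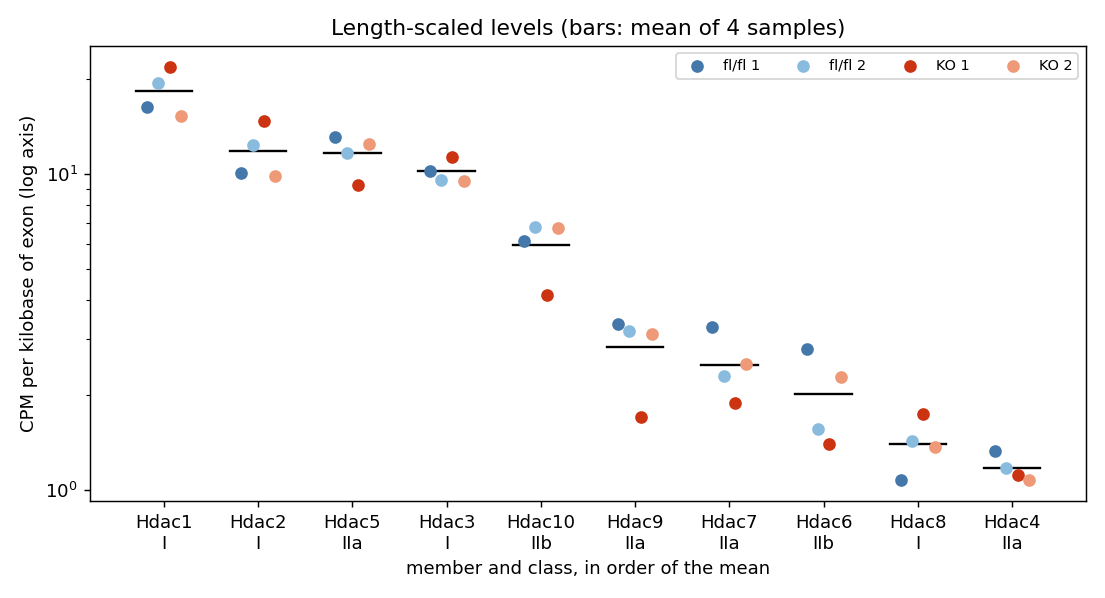
CPM per kilobase of exon on a log axis for the 10 members in order of their mean, with each point a sample (blue, Dnmt1fl/fl; red, Dnmt1KO) and each bar the mean of 4 samples. Hdac1 sits alone at the top with samples from 15.3 to 21.9, and Hdac4 is at the bottom with samples from 1.07 to 1.33.

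In the comparison of Dnmt1KO with Dnmt1fl/fl macrophages, none of the 10 members passed the test. In the edgeR test 0 of the 10 had a Benjamini-Hochberg adjusted p under 0.05, where 0 of 12542 genes (0%) did. At an unadjusted p under 0.05 the count was also 0 of 10, where 35 genes (0.279%) passed. DESeq2 and limma-voom also called 0 members. With 2 samples a genotype, a p that misses the threshold does not show that the levels were alike. The estimated log2 fold change was positive for all 4 class I members, although without TMM scaling it was -0.03 for Hdac1 and -0.0012 for Hdac3, and it was negative for all 6 class II members under each alternative fitted to all 4 samples. Their medians were 0.10 for class I and -0.25 for class II, against 0.00 over all genes tested. Without Dnmt1KO replicate 1 the medians were -0.12 for class I and -0.03 for class II. The study's limit, 0.2 on the log2 scale in either direction, was reached by 5 of 10 members, where 41.5% of all genes reached it, and Hdac4 fell just short at -0.198. Hdac4 and Hdac9 were the 2 members whose genotypes did not overlap, where 16.7% of all genes did not. Both shares are near that background.

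**Figure D2:**
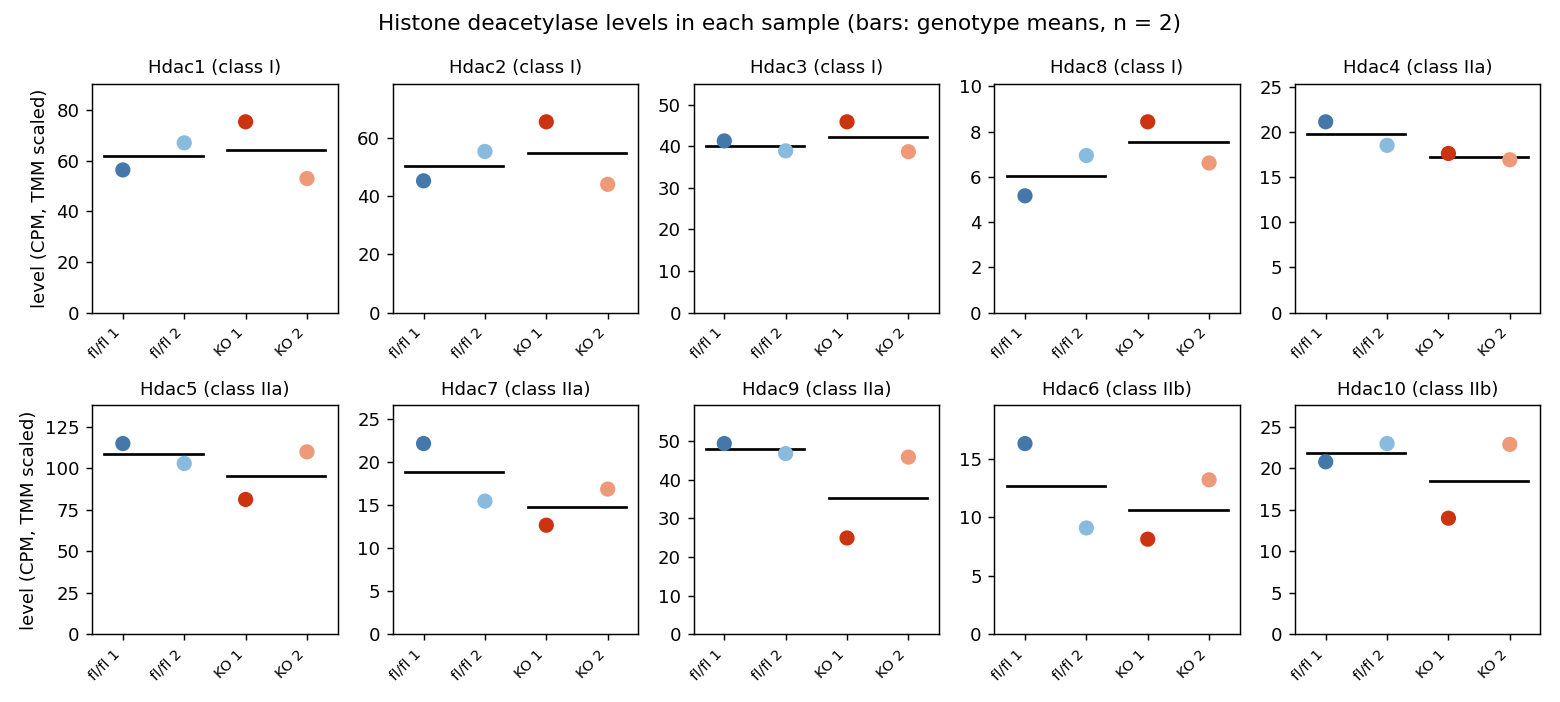
Level in CPM (TMM scaled, linear axis from 0) of each member in the 4 samples, with points for samples (blue, Dnmt1fl/fl; red, Dnmt1KO) and bars for genotype means, n = 2. Dnmt1KO replicate 1, in dark red, is the highest sample for Hdac1, Hdac2, Hdac3 and Hdac8 and the lowest for Hdac5, Hdac6, Hdac7, Hdac9 and Hdac10.

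Among the class I enzymes, Hdac1 was at 56.3 and 67 CPM in Dnmt1fl/fl and at 75.3 and 52.9 CPM in Dnmt1KO replicates 1 and 2. The Dnmt1KO samples were thus the highest and the lowest of the 4, and the log2 fold change of 0.06, with standard error 0.26, was smaller than the SD between replicates of 0.28. Without replicate 1 it was -0.22. Of the 100-base stretches of Hdac1 transcripts, 24.9% also occur in Gm10093, and the Hdac1 counts in 3 of the samples were not whole numbers, so its level is uncertain by the reads these genes share. Hdac2, on chromosome 10 from 36974544 to 37001889, was at 45.3 and 55.4 CPM in Dnmt1fl/fl and at 65.6 and 44.1 CPM in Dnmt1KO samples. Its samples fell in the same order as those of Hdac1, with a log2 fold change of 0.12 (standard error 0.27), or -0.19 without replicate 1. Hdac2 shared no 100-base stretch with transcripts of another gene.

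Hdac3, on chromosome 18 from 37935844 to 37955016, was the steadiest member of class I. It was at 41.3 and 38.9 CPM in Dnmt1fl/fl and at 45.9 and 38.7 CPM in Dnmt1KO samples, a log2 fold change of 0.08 (standard error 0.21), or -0.05 without replicate 1. Hdac8, on chromosome X from 102284639 to 102505359, was at 5.16 and 6.94 CPM in Dnmt1fl/fl and at 8.43 and 6.61 CPM in Dnmt1KO samples, from raw counts of 106 to 174. Only Dnmt1KO replicate 1 exceeded both controls, and the log2 fold change of 0.31 (standard error 0.33) was the largest positive one of the family, near the SD between replicates of 0.28. Without replicate 1 it was 0.12.

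Hdac9 had the largest difference among the class IIa enzymes and in the family. This gene, on chromosome 12 from 34047580 to 34917095, was at 49.3 and 46.7 CPM in Dnmt1fl/fl and at 24.9 and 45.8 CPM in Dnmt1KO samples. Dnmt1KO replicate 1 was far below the other 3 samples, while replicate 2 was just under the controls. The log2 fold change was -0.44, with standard error 0.33 and, in edgeR, adjusted p = 1.00. Without Dnmt1KO replicate 1 it was -0.07. With Dnmt1KO replicate 1 alone against the 2 controls it was -0.94 (standard error 0.20, adjusted p = 0.0192 from edgeR, with the lone sample assumed to vary like the controls), the only member called there, in a fit that called 8.32% of all genes. At an unadjusted p under 0.05 that fit called 2 members, Hdac9 and Hdac10, and 27.6% of all genes, and the fit without Dnmt1KO replicate 1 called 0 members and 2.73% of all genes.

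Hdac4, on chromosome 1 from 91928779 to 92195699, was at 21.1 and 18.5 CPM in Dnmt1fl/fl and at 17.6 and 16.9 CPM in Dnmt1KO samples. It was the 1 member besides Hdac9 whose Dnmt1KO samples were both below the controls, and the 1 class II member for which the Dnmt1KO samples were close to each other. The log2 fold change of -0.20 (standard error 0.23) was larger than the SD between replicates of 0.10 and did not pass the edgeR test (adjusted p = 1.00). It was -0.23 without replicate 1. After the length correction, which removed from each library the trend of its deviations with exon length, it was -0.02 and the genotypes overlapped. Of its exon bases, 22.4% are overlapped on the opposite strand by Gm26720, and whether strand was used in counting is not stated.

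Hdac5, on chromosome 11 from 102194432 to 102230166, had the highest CPM of the family without scaling for length. It was at 115 and 103 CPM in Dnmt1fl/fl and at 81.3 and 110 CPM in Dnmt1KO samples. Dnmt1KO replicate 2 was between the controls and replicate 1 below them, with a log2 fold change of -0.19 (standard error 0.25) that became 0.01 without replicate 1. Hdac7, on chromosome 15 from 97792664 to 97844502, was at 22.2 and 15.5 CPM in Dnmt1fl/fl and at 12.7 and 16.9 CPM in Dnmt1KO samples. The controls differed from each other by 0.51 on the log2 scale, and the genotype difference of -0.35 (standard error 0.30) was near the SD between replicates of 0.33 and was -0.15 without replicate 1.

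The class IIb enzymes followed the same order in the Dnmt1KO samples. Hdac10, on chromosome 15 from 89123307 to 89128700, was at 20.8 and 23 CPM in Dnmt1fl/fl and at 14 and 22.9 CPM in Dnmt1KO samples. Its log2 fold change was -0.25 (standard error 0.30), and 0.06 without Dnmt1KO replicate 1. Hdac6, on chromosome X from 7930120 to 7947889, was at 16.3 and 9.09 CPM in Dnmt1fl/fl and at 8.13 and 13.2 CPM in Dnmt1KO samples. The controls lay 0.84 apart on the log2 scale, the widest gap of any member between controls, and the log2 fold change of -0.25 (standard error 0.41) was smaller than the SD between replicates of 0.55 and was 0.06 without replicate 1.

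The class I and class II enzymes parted in Dnmt1KO replicate 1 and much less in replicate 2. Replicate 1 was the highest of the 4 samples for 4 of 4 class I members, where it was the highest for 38.8% of all genes, and the lowest for 5 of 6 class II members, where it was the lowest for 39.6%. Relative to the mean of the controls, the median log2 difference of replicate 1 was 0.34 over class I and -0.57 over class II, and that of replicate 2 was -0.12 and -0.03. All 10 members lay outside the range of the controls in replicate 1, against 82.9% of all genes, and 5 of 10 in replicate 2, against 64.6%. The members are not independent samples of a condition, so these counts describe 1 library. Without replicate 1 the log2 fold change turned negative for 3 of 4 class I members, leaving Hdac8 at 0.12, and positive for Hdac5, Hdac6 and Hdac10, and 2 of 10 members reached 0.2, where 42.1% of all genes did.

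The members of class II have longer transcripts on the whole, and long genes were low in Dnmt1KO replicate 1. The exon union of class I members ran from 3.44 to 4.84 kilobases, and that of class II members from 3.38 (Hdac10) to 15.8 kilobases (Hdac4). After the length correction replicate 1 was the highest sample for all 4 class I members (45.1% of all genes) and the lowest for Hdac5, Hdac7, Hdac9 and Hdac10 (31.3% of all genes), while Hdac6 was no longer lowest and Hdac4 became highest. The log2 difference of replicate 1 from the controls shrank for 4 class II members, from -0.42 to -0.12 for Hdac5, -0.58 to -0.38 for Hdac6, -0.55 to -0.31 for Hdac7 and -0.94 to -0.47 for Hdac9. It turned from -0.16 to 0.34 for Hdac4 and was -0.64 before and -0.66 after for Hdac10. In class I it went from 0.29 to 0.28 for Hdac1, 0.39 to 0.49 for Hdac2, 0.20 to 0.25 for Hdac3 and 0.49 to 0.62 for Hdac8. With a correction for GC content, chosen after seeing the data, replicate 1 was the highest for 4 class I members (44.7% of all genes) and the lowest for 5 class II members (33.9% of all genes). Its log2 difference from the controls was then 0.35 for Hdac1, 0.64 for Hdac2, 0.31 for Hdac3 and 0.70 for Hdac8, all larger than as measured. In class II it was larger in size for Hdac4 (-0.17), Hdac5 (-0.50), Hdac6 (-0.59), Hdac7 (-0.63) and Hdac10 (-0.69), and smaller for Hdac9 (-0.79). The part that exon length, GC content or the neutrophil and B cell RNA of this library has in the pattern was not tested. In bulk samples fewer cells of a type and less RNA per cell cannot be told apart.

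**Figure D3:**
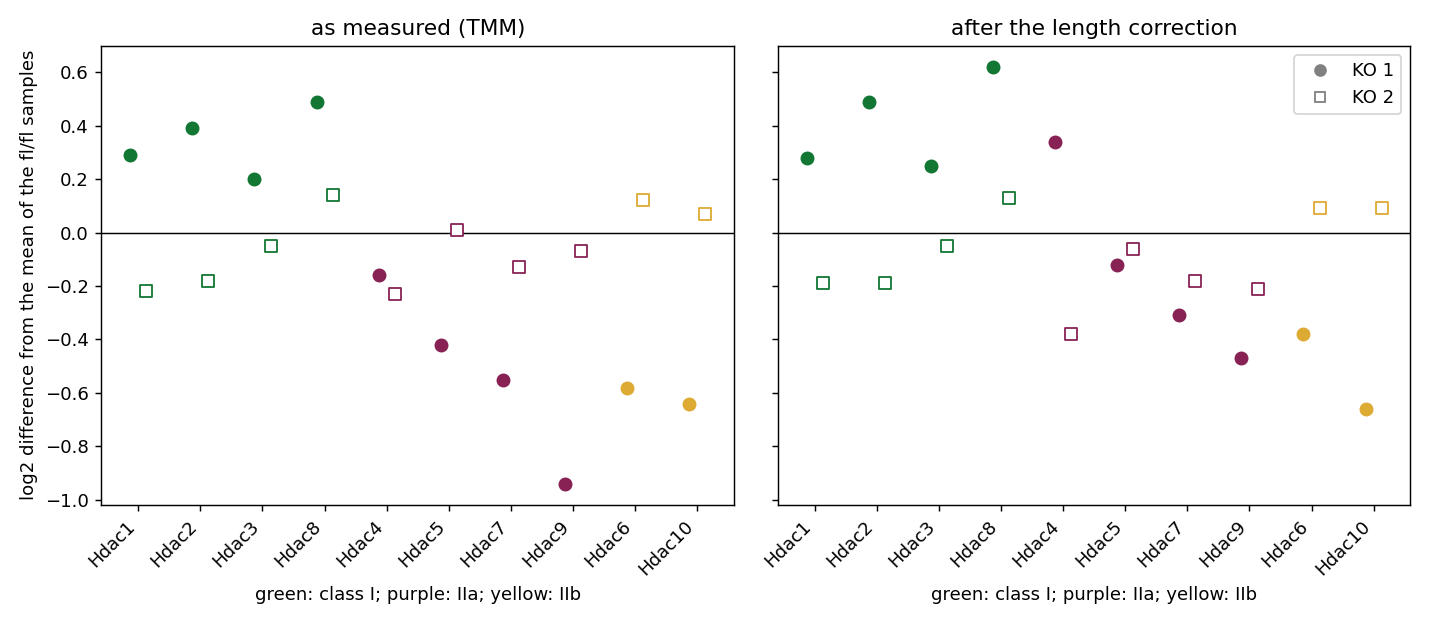
Log2 difference of each Dnmt1KO sample from the mean of the 2 Dnmt1fl/fl samples, as measured (left) and after the length correction (right), with filled circles for replicate 1, open squares for replicate 2 and colours for class. As measured, replicate 1 runs from 0.20 to 0.49 over class I and from -0.94 to -0.16 over class II, and replicate 2 stays between -0.23 and 0.14.

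Summed over the 10 members, the level per kilobase varied little between samples, at 67.7 and 69.6 CPM per kilobase in Dnmt1fl/fl and 69.1 and 64.4 CPM per kilobase in Dnmt1KO. The class I share of this sum was 55.7% and 61.5% in Dnmt1fl/fl and 71.8% and 56.1% in Dnmt1KO samples. Class IIa held 31.1% and 26.4% against 20.2% and 29.8%, and class IIb 13.2% and 12% against 8.03% and 14.1%. Dnmt1KO replicate 2 fell among or next to the controls for each class, and only replicate 1 lay clearly apart. By genotype the class I share was 58.6% ± 4.15 (SD, n = 2) and 63.9% ± 11.1 (SD, n = 2), which overlap, and an exact two-sided permutation test of 2 against 2 samples cannot go below p = 0.333.

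**Figure D4:**
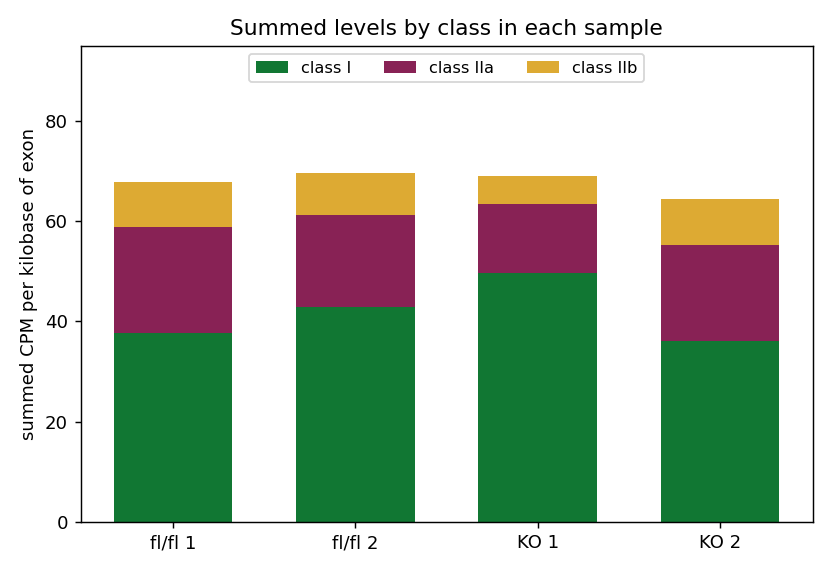
Summed CPM per kilobase of exon in each sample, stacked by class (green, class I; purple, class IIa; yellow, class IIb), on a linear axis from 0. Totals run from 64.4 to 69.6, and class I takes 49.6 in Dnmt1KO replicate 1 and 36.1 to 42.9 in the other samples.

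The subunits and partners of the deacetylases, the deacetylases outside the family and further genes of lysine acetylation were described from lists totalling 81 genes, of which 78 were tested. In edgeR 0 of the 78 passed at an adjusted p under 0.05, and at an unadjusted p under 0.05 the count was also 0. The limit of 0.2 was reached by 10 in the positive direction, against 21.8% of all genes, and by 8 in the negative direction, against 19.7%. Genotypes did not overlap for 5 with Dnmt1KO higher (8.14% of all genes) and for 4 with Dnmt1KO lower (8.56%). The median log2 fold change was 0.00, as over all genes.

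Of the complexes that carry Hdac1 and Hdac2, the NuRD remodelling complex had 11 members tested. It had 3 past 0.2 in the positive direction (21.8% of all genes) and 0 in the negative (19.7%), with a median of 0.02. Its extremes were Mbd3, a subunit of the complex, at 0.34 (standard error 0.33), and Chd3, 1 of its remodelling ATPases, at -0.198 (standard error 0.56), just short of the limit. Without Dnmt1KO replicate 1 these values were -0.18 and 0.39. Mbd3 was at 60.6 and 60.2 CPM in Dnmt1fl/fl and at 99.6 and 53.5 CPM in Dnmt1KO samples, so the genotypes overlapped and replicate 1 alone was high. Genotypes did not overlap for 3 of the 11 NuRD genes, all with Dnmt1KO higher, where 8.14% of all genes were so, and they are named here after their values were seen. They were the subunits Mta1 at 0.21 (standard error 0.20), Mta3 at 0.30 (standard error 0.21) and Mbd2, which binds methylated CpG, at 0.12 (standard error 0.21). In Dnmt1KO replicate 2 alone the log2 difference from the mean of the controls was 0.29 for Mta1, 0.19 for Mta3 and 0.02 for Mbd2. Mta1 was at 29.6 and 27.6 CPM in Dnmt1fl/fl and at 31.4 and 34.9 CPM in Dnmt1KO samples, so both Dnmt1KO samples exceeded the controls and replicate 2 was the higher. The Sin3 complex had 13 members tested, 1 past 0.2 in each direction and a median of 0.11, from the scaffold Sin3b at 0.25 (standard error 0.24) to Arid4a at -0.29 (standard error 0.39), or 0.02 and 0.16 without Dnmt1KO replicate 1. Sin3b was at 93 and 92.8 CPM in Dnmt1fl/fl and at 127 and 94 CPM in Dnmt1KO samples, higher in both though hardly so in replicate 2, which was at -0.03 from the mean of the controls after the length correction. Of the CoREST complex, 5 of 6 members were tested and 0 reached 0.2, from Rcor3 at -0.02 to Rcor1, its scaffold, at -0.14, or 0.36 and 0.08 without Dnmt1KO replicate 1. In the mitotic deacetylase complex Dnttip1, which links its subunits, was at 0.35 (standard error 0.28) and Elmsan1 at -0.14, or -0.00 and 0.26 without that replicate, with 3 of 4 symbols tested and Mideas, a later name of Elmsan1, not listed.

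The NCoR and SMRT complex, which carries Hdac3, had 5 members tested, none of them past 0.2 and a median of -0.12. Its values ran from Tbl1xr1 at 0.13 (standard error 0.22) to Tbl1x at -0.16 (standard error 0.24), both exchange factors of the complex, and were 0.02 and 0.03 without Dnmt1KO replicate 1. The partners of class IIa enzymes, MEF2 factors and the 14-3-3 proteins that hold them in the cytoplasm, had 10 members tested. In each direction 2 were past 0.2, where 21.8% (positive) and 19.7% (negative) of all genes were. Among these partners the 14-3-3 gene Ywhae was at 0.22 (standard error 0.29) and Mef2c at -0.21 (standard error 0.31), or -0.14 and 0.08 without Dnmt1KO replicate 1. Of the kinases that phosphorylate class IIa enzymes 10 of 11 were tested, Prkd1 not being listed. Past 0.2 were 1 in the positive direction (21.8% of all genes) and 3 in the negative (19.7%). Camk4 was at 0.34 (standard error 0.83), from levels of 0.202 to 0.72 CPM, and Camk2g at -0.36 (standard error 0.27), or 0.95 and -0.09 without Dnmt1KO replicate 1. Genotypes did not overlap for 3 of the 10 kinases, with Camk1 higher in Dnmt1KO at 0.08 (standard error 0.21), Camk2d lower at -0.09 (standard error 0.20) and Camk2g lower, the first 2 of them named after their values were seen. Over all genes the shares were 8.14% for higher and 8.56% for lower. In replicate 2 alone Camk1 was 0.11 from the mean of the controls and Camk2d -0.06. After the length correction Camk2d was at 0.50 in replicate 1 and -0.28 in replicate 2, so its Dnmt1KO samples lay on either side of that mean.

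Sirtuins, the class III deacetylases, use NAD and are not related in sequence to the 10 members. All 7 were tested, with a median of -0.02, from Sirt5 at 0.28 (standard error 0.47) to Sirt4 at -0.55 (standard error 0.46), both mitochondrial enzymes. Sirt4 was at 8.09 and 6.1 CPM in Dnmt1fl/fl and at 3.03 and 6.65 CPM in Dnmt1KO samples, so replicate 1 alone was low. Without it, and so with 1 Dnmt1KO sample, Sirt4 was at -0.09 and Sirt5 at 0.71. The acetyltransferases, which add the mark the deacetylases remove, had 10 members tested. Past 0.2 were 0 in the positive direction (21.8% of all genes) and 1 in the negative (19.7%). Kat2a, a transferase of the SAGA complex, was at 33.9 and 31.8 CPM in Dnmt1fl/fl and at 26.5 and 28.4 CPM in Dnmt1KO samples, a log2 difference of -0.26 with standard error 0.20 (in edgeR, adjusted p = 1.00). It was -0.21 without Dnmt1KO replicate 1. Its genotypes did not overlap, with Dnmt1KO lower, where 8.56% of all genes were so. Kat2a was the only 1 of the 10 transferases without overlap, which is near that share. Hat1, which acetylates new histones, was at the other end with 0.12 (standard error 0.28), or -0.26 without that replicate.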

How the data were processed

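Peritoneal macrophage RNA from 2 Dnmt1fl/fl and 2 Dnmt1KO samples was sequenced by the authors as paired-end reads, aligned to mm10 with HISAT2 2.0.5 and counted per gene with featureCounts 1.5.0-p3, per the study's methods and the submitters' processing notes. The annotation, the strand setting and the treatment of reads matching several genes were not given in the sources used here. The authors deposited estimated counts per gene without normalization. Between 72.6% and 76.4% of values per sample were whole numbers. A shorter table, picked by the study's own fold change limit, was not used.

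Counts were rounded, filtered with filterByExpr (12542 of 13834 genes kept, 8 symbols repeated and kept as separate rows) and scaled with TMM (factors from 0.91 to 1.04). Genotypes were compared with edgeR 4.0.16 (R 4.3.3), quasi-likelihood F-test, two-sided, without a block, with Benjamini-Hochberg adjustment over all genes tested. Standard errors were derived from the F statistic. The estimated dispersion of 0.0837 equals a variation of 28.9% between replicates. In each sample 3 counts, taken as the floor, corresponded to 0.12 to 0.151 CPM, which covers counting error only. The models were tested on simulated counts with 200 changed genes.

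As alternatives served limma-voom (limma 3.58.1), DESeq2 1.42.0, no filter, at least 10 counts in every sample, no TMM, each sample left out, the replicate number as a block, and a loess correction (span 0.5, local linear) of log2 CPM (prior count 1) for exon length, tested with limma-trend. GC correction and a crossed block were added after seeing the data. Replicate numbers come from the titles, and no source says that they pair samples. GENCODE M21 (GRCm38) gave lengths, positions and overlaps by symbol (98.5% of genes tested), and shared sequence was counted over 100-base stretches of transcripts. Start regions are from RefSeq. Tables were made with Python 3.11.15. The members, gene lists and marker lists were chosen with earlier results of these data known. Named genes are all 10 members, Dnmt1, and list members with an unadjusted p under 0.05 or, where a list had none, its largest and smallest log2 fold change. Outside this rule Mta1, Mta3, Mbd2, Camk1 and Camk2d were named for genotypes that did not overlap, after their values were seen, and marker genes were named to check the samples. The values of 1 of the lists are not reported here, though its genes are in the counts over all lists.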

Additional observations from a re-analysis of the deposited data

How the results depend on the processing

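Of 110 member log2 fold changes from 11 alternatives on all 4 samples, 108 kept their direction and none passed an adjusted p of 0.05. The other 2 came without TMM, with Hdac1 at -0.03 and Hdac3 at -0.0012. With the replicate number as a block, 0 members had an adjusted p under 0.05 and 6 reached 0.2 on the log2 scale in either direction (42.6% of all genes), against 0 and 5 without it, and Hdac9 was at -0.50. The block changed no other call. The count past 0.2 was 7 without TMM (40.2% of all genes) and with GC correction (42.1%), and 4 with length correction (39.7%). Same-numbered samples did not deviate together (correlation -0.348 across genes, which are not independent). With the pairing crossed, 0 members passed. Across fits that each left out a sample, 0 to 1 members had an adjusted p under 0.05, 2 to 8 reached 0.2, 3 to 10 did not overlap, and 0 to 25 of the listed acetylation genes had an unadjusted p under 0.05. The 1 member, the 8, the 10 and the 25 of 78 were all without Dnmt1KO replicate 2, in a fit where 8.32%, 72.4%, 82.8% and 27.6% of all genes met the same limits. The 2 were without Dnmt1KO replicate 1, where 42.1% of all genes reached 0.2, and without Dnmt1fl/fl replicate 1 it was 3 members and 45.2%. Genotypes did not overlap for 3 members without Dnmt1fl/fl replicate 1 (40.1% of all genes), 6 without Dnmt1fl/fl replicate 2 (46.4%) and 5 without Dnmt1KO replicate 1 (64.6%). The direction changed for 3 members without Dnmt1fl/fl replicate 1 and for 6 without Dnmt1KO replicate 1. A genotype left with 1 sample overlaps less often by construction. The log2 fold change then ran from -0.22 to 0.29 for Hdac1, -0.19 to 0.38 for Hdac2, -0.05 to 0.20 for Hdac3, -0.29 to -0.10 for Hdac4, -0.42 to 0.01 for Hdac5, -0.64 to 0.23 for Hdac6, -0.58 to -0.07 for Hdac7, 0.12 to 0.55 for Hdac8, -0.94 to -0.07 for Hdac9 and -0.64 to 0.06 for Hdac10. By level per kilobase, 6 of 10 members kept their place with the longest transcript, 5 in Dnmt1fl/fl replicate 1 alone and 4 in Dnmt1KO replicate 1 alone. The cause was not tested. Raw member counts of 106 or more leave the replicate spread as the wider error.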

Other observations

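Hdac11, the class IV deacetylase, had raw counts of 18 and 13 in Dnmt1fl/fl and of 5 and 36 in Dnmt1KO replicates 1 and 2. Its levels were 0.877, 0.518, 0.253 and 1.53 CPM in the same order, so the Dnmt1KO samples were the lowest and the highest of the 4. The log2 fold change was 0.37 (standard error 0.90, adjusted p = 1.00 from edgeR). It was 1.14 without Dnmt1KO replicate 1, a fit that leaves 1 Dnmt1KO sample and so holds no spread between them. Of its exon bases, 17.9% are overlapped on the opposite strand by Gm44002 and Gm14573.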
